A study of Mus musculus with 7 samples.

Results

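The cytosolic ribosomal protein genes were compared between 3 enlarged spleens of mice with the genotype Vav1-iCre;Brca1F22-24/F22-24, called mutant here, and 4 spleens of wild-type C57BL6 mice (Brca1+/+), all aged 2 to 3 months. Members were chosen by symbol alone, as genes named Rpl or Rps with a number and at most a short suffix, plus Rplp0, Rplp1, Rplp2 and Rpsa. This gave 84 of the 24062 genes in the count table. Of these, 77 encode standard subunit proteins (46 of the large subunit and 31 of the small) and 7 are paralogs of a standard gene with their own symbol (Rpl3l, Rpl7l1, Rpl10l, Rpl22l1, Rpl39l, Rps4l and Rps27l). Expression was measured by paired-end sequencing of total RNA from whole spleen. Vav1-iCre drives the Cre recombinase in blood cells, and the altered Brca1 allele concerns exons 22 to 24. The recombinase, the allele and the enlargement of the spleen are described for the mutant mice only, and their effects cannot be told apart. Each library is labelled as a spleen of its own, with no matching of animals, so p-values reflect only how far these spleens spread.

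Ribosomal proteins are the structural proteins of the ribosome. Each cell needs them in matched amounts, together with ribosomal RNA, to build the small subunit, which reads the messenger RNA, and the large subunit, which joins the amino acids. Their messenger RNAs start with a run of pyrimidine bases, the terminal oligopyrimidine (TOP) tract, through which their translation is coupled to growth signals. In human blood, loss of a copy of several of these genes causes Diamond-Blackfan anaemia, a failure of red cell production, and unassembled ribosomal proteins are known to bind Mdm2 and so stabilise p53.

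The libraries held 30660980 to 51680976 counts in the mutant and 26889712 to 63612532 in wild type. A gene was called higher or lower at an adjusted p under 0.05 by edgeR's quasi-likelihood test with Benjamini-Hochberg adjustment over all 15188 genes tested, and positive log2 fold changes stand for higher levels in the mutant. Brca1 stood at 67.6, 47.1 and 42.7 CPM (counts scaled to library size with TMM factors) in the mutant, while wild-type spleens had 46.2, 72.8, 15.7 and 20.2 CPM (log2 fold change 0.44, adjusted p = 0.490, and 1.55 with adjusted p = 0.0129 without wild-type 1 and 2), and counts summed over the gene cannot show a loss of single exons. The cell makeup of the spleens differed by marker genes. Markers of immature T cells summed to 772, 1921 and 1157 CPM in the mutant against 29.5 to 39.1 CPM in wild type, with 6 of 6 called higher. Markers of mature B cells summed to 98.8, 207 and 27.2 CPM in the mutant against 3764 to 5079 CPM in wild type, with 7 of 7 called lower. Markers of dividing cells summed to 5495, 5886 and 5094 CPM in the mutant against 2195, 3493, 754 and 972 CPM in wild type, with 7 of 8 called higher. Erythroid markers had none of 8 called and ranged widely within both groups, from 1625 to 8975 CPM in mutant spleens and from 641 to 8943 CPM in wild type. Of 6 T cell markers 5 were called higher, and 1 of 5 red pulp macrophage and 1 of 8 neutrophil markers were called lower. None of these markers was at 0 in any library. In whole tissue, more cells of a type and more RNA per cell cannot be told apart, and the part of cell makeup in the results below was not tested.

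Ribosomal protein genes took a larger part of the counts in the mutant spleens. They held 9.21%, 10.4% and 11.3% of all counts in the 3 mutant libraries, against 7.68%, 6.32%, 8.16% and 6.39% in the 4 wild-type libraries. All mutant libraries thus stood above all wild-type libraries. The means were 10.3% ± 1.05 in the mutant and 7.14% ± 0.924 in wild type (SD, n = 3 and 4), and 10.5% and 7.34% when globin genes were left out of the total. Globin genes, which can crowd a spleen library, held 3.27%, 0.684% and 0.839% of counts in the mutant and 3.01%, 7.04%, 0.576% and 0.748% in wild type, so both groups held libraries with high and with low globin. Large-subunit genes held 5.50% to 6.85% of counts in the mutant and 3.64% to 4.64% in wild type, and small-subunit genes 3.71% to 4.46% in the mutant and 2.68% to 3.52% in wild type. The ratio of small-subunit to large-subunit counts was 0.675, 0.703 and 0.650 in the mutant, against 0.752, 0.737, 0.758 and 0.745 in wild type. This ratio needs no scaling between libraries, and it was lower in every mutant library than in any wild-type library.

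**Figure D1:**
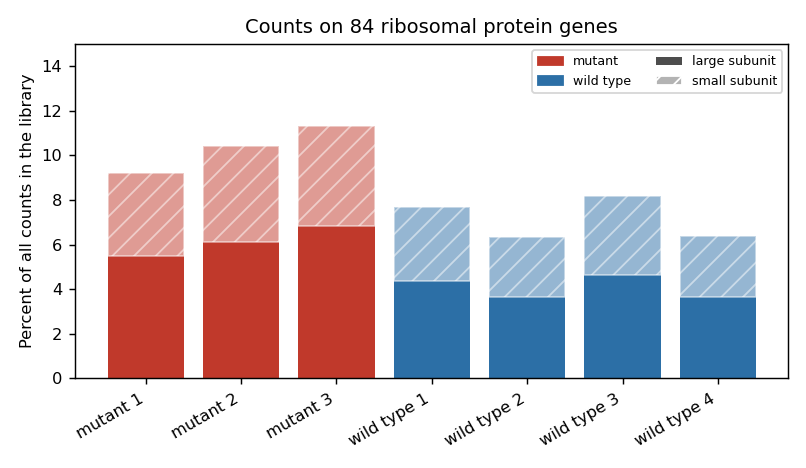
Percent of all counts in each library that fell on the 84 ribosomal protein genes, with the large-subunit genes as the solid lower part of each bar and the small-subunit genes as the hatched upper part. The mutant libraries (red) reach 9.21% to 11.3%, above the wild-type libraries (blue) at 6.32% to 8.16%.

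Gene by gene, 60 of the 82 members with enough counts to test rose in the mutant, 1 fell, and 21 did not pass the threshold. Much of the transcriptome differed between these spleens, with 28.5% of all tested genes higher and 28.9% lower, and the members' share higher was 73.2%. The median log2 fold change was 0.71 over the members and -0.02 over all genes tested. Values were positive for 80 members and negative for Rps27 and Rps4l. The groups did not overlap for 65 members (79.3%), all mutant libraries being higher for 63 and lower for 2, beside 61.7% of all tested genes, of which 29.2% were higher in all mutant libraries and 32.6% lower. At least 2-fold increases were called for 21 members (16 of the large and 5 of the small subunit), with 17.2% of all tested genes past the same limits. With library size alone as the scaling, which places the median of all genes at -0.26, the counts were 42 higher and 2 lower, 77 members had positive values, and the members' median was 0.46. Under that scaling 38.1% of all calls were increases, against 49.7% with TMM factors. Without wild-type 1 and 2, whose erythroid and division genes stand high, 26 of 83 tested members were called higher and 2 lower. Of 15474 genes tested in that fit, 2923 were called higher and 3011 lower (38.3% in either direction). The members' median was 0.73.

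Large-subunit genes had the higher median. Of 46 standard large-subunit genes 38 rose (82.6%, median log2 fold change 0.76) and 8 were not called, with values from 0.00 for Rpl37a to 1.39 for Rpl15. Of 31 standard small-subunit genes 20 rose (64.5%, median 0.66) and 11 were not called, with values between -0.54 for Rps27 and 1.49 for Rps2. The difference between the subunits was not tested. Of the 19 standard genes not called, 18 had positive values.

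**Figure D2:**
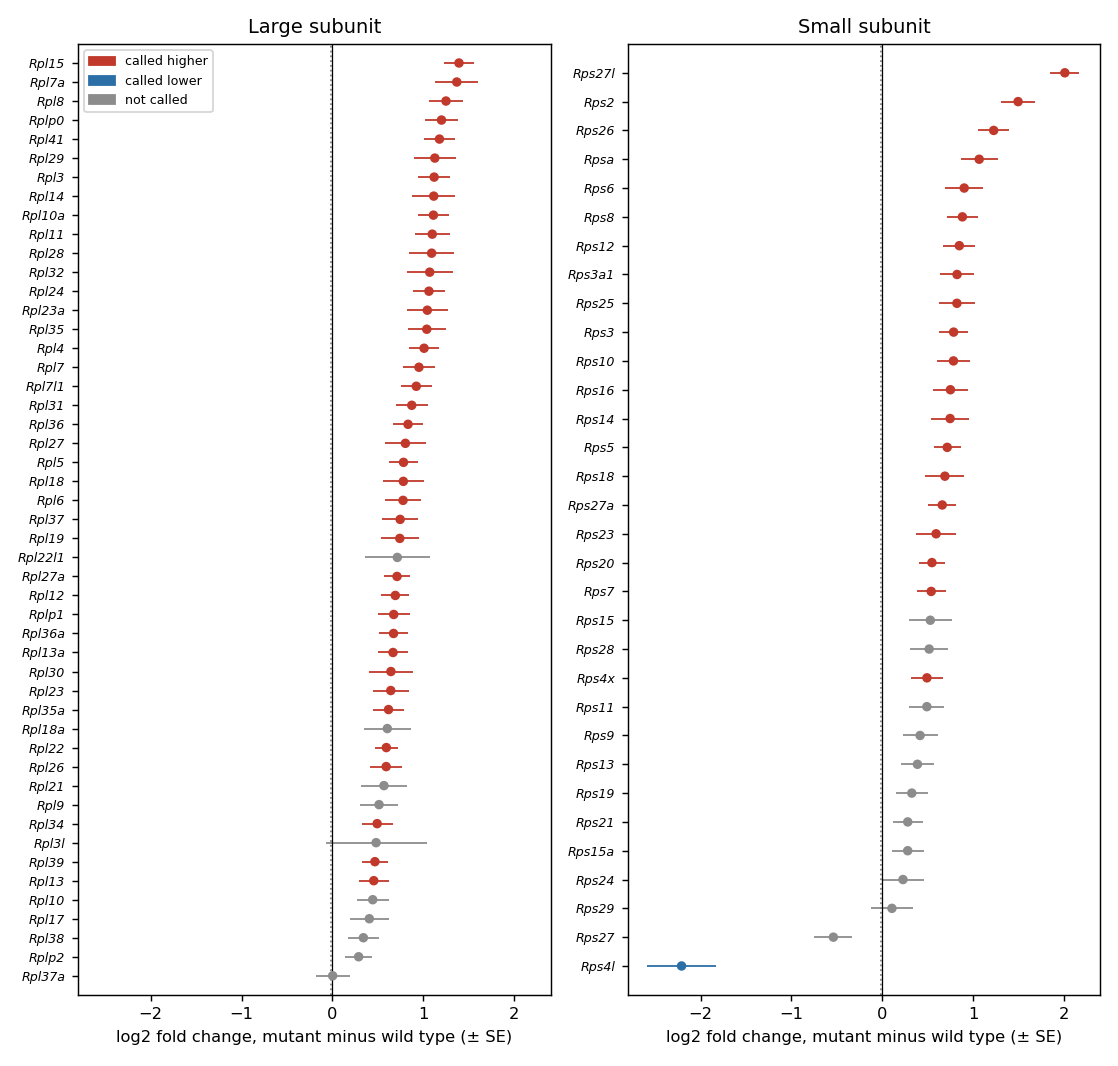
Log2 fold change of each tested member, mutant minus wild type, with bars of 1 standard error (SE), for large-subunit genes (left) and small-subunit genes (right), paralogs included and 1 member not drawn. Red points were called higher, blue lower and grey not called. The dotted line is the median of all genes tested (-0.02), and only Rps27 and Rps4l lie below 0.

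The largest increase was that of Rps27l, a small-subunit paralog known in human cells as a gene induced by p53, which had 113, 149 and 120 CPM in the mutant, against 32.5, 33.3, 25.8 and 35.002 CPM in wild type. Its lowest mutant library stood more than 3-fold above its highest wild-type library. The log2 fold change was 2.01 (SE 0.16, adjusted p = 1.81e-04). Rps2, a small-subunit protein at the channel where messenger RNA enters, had 1809, 2298 and 2746 CPM in mutant spleens and 913, 822, 825 and 685 CPM in wild type. No libraries overlapped, and the log2 fold change was 1.49 (SE 0.19, adjusted p = 6.14e-04). Rpl15, a large-subunit protein whose loss causes Diamond-Blackfan anaemia in humans, had 1153, 1441 and 1600 CPM in mutant spleens and 571, 496, 568 and 495 CPM in wild type (log2 fold change 1.39, SE 0.16, adjusted p = 4.77e-04). Rpl7a, a large-subunit protein, averaged 2341 ± 656 CPM in mutant spleens and 907 ± 147 CPM in wild type, a log2 fold change of 1.37 (SE 0.24). Rpl8, a protein close to the peptidyl transferase centre, averaged 2159 ± 461 CPM in mutant spleens and 908 ± 81.2 CPM in wild type, with a log2 fold change of 1.25 (SE 0.18). All 5 of these genes also passed the threshold in every alternative tried.

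Among the members with the most counts, Rpsa (the laminin receptor, part of the small subunit) had 4964, 4526 and 5266 CPM in the mutant, against 2626, 2404, 2713 and 1658 CPM in wild type (log2 fold change 1.07, SE 0.20, adjusted p = 0.00331). The mutant libraries lay within a narrow range, and wild-type 4 stood below the other wild-type libraries. Rpl4, which lines the exit tunnel of the nascent chain, averaged 3844 ± 323 CPM in mutant spleens and 1911 ± 265 CPM in wild type (log2 fold change 1.01, SE 0.17). Rps3a1, a small-subunit protein near the exit channel of messenger RNA, averaged 3135 ± 435 CPM in mutant spleens and 1773 ± 283 CPM in wild type (log2 fold change 0.82, SE 0.19). Rps6, the target of growth-regulated kinases, had 2204, 2749 and 3287 CPM in mutant spleens and 1631, 1510, 1640 and 1103 CPM in wild type (log2 fold change 0.90, SE 0.21, adjusted p = 0.00791). Rps27a, made as a fusion with ubiquitin, had a log2 fold change of 0.66 (SE 0.15), and Rps14, whose gene is lost in a human myelodysplastic syndrome, one of 0.75 (SE 0.21, adjusted p = 0.0160). Without wild-type 1 and 2, the calls of Rps6, Rps14, Rps27a, Rps3a1, Rps4x, Rpl5, Rpl22, Rpl23, Rpl39, Rplp1 and Gnb2l1 were lost (adjusted p from 0.0608 to 0.222), and with library size alone those of Rps14, Rps4x, Rpl22, Rpl23 and Rpl39 (0.0782 to 0.303). The call of Rps14 was also lost without mutant 2 (adjusted p = 0.0632). Per kilobase of messenger RNA, a scale on which genes can be set beside each other, Rplp1 stood at 4648 CPM per kb in the mutant and 2912 in wild type, Rpl23a at 4597 in the mutant and 2229 in wild type, and Rps12 at 4108 in the mutant and 2284 in wild type. The length is that of 1 annotated transcript per gene, so this scale depends on the transcript taken.

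Some members moved little, among them Rps24, 1 of the 5 members highest in CPM. Rps24, a small-subunit protein needed for processing of ribosomal RNA, had 2000, 2859 and 2683 CPM in the mutant, against 2341, 2198, 2586 and 1466 CPM in wild type. The groups overlapped, and the log2 fold change was 0.23 (SE 0.23, adjusted p = 0.433). Rpl37a, a zinc-binding large-subunit protein, had 555, 696 and 785 CPM in mutant spleens and 749, 609, 783 and 569 CPM in wild type, and its log2 fold change was 0.00 (SE 0.19, adjusted p = 0.993). Rps29, a small-subunit zinc-binding protein, likewise overlapped between groups (log2 fold change 0.11, SE 0.24, adjusted p = 0.723). Rpl37a and Rps29 were singled out after their values were seen.

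Rps27 was the only standard member with a negative value. It had 530, 674 and 694 CPM in the mutant, against 1056, 802, 1109 and 709 CPM in wild type. Every mutant library was lower than every wild-type library, by a small margin between mutant 3 and wild-type 4. The log2 fold change was -0.54 (SE 0.21, adjusted p = 0.0583), which missed the threshold, and it passed at -0.65 (adjusted p = 0.0331) without wild-type 4, at -0.79 (adjusted p = 0.0127) with library size alone and at -0.52 (adjusted p = 0.0488) by limma-voom. Over its alternatives the adjusted p ranged from 0.0127 to 0.186. The table lists a second gene, Rps27rt, over nearly the same span and strand with 99.6% to 99.9% as many counts in every library, so the reads of these entries cannot be separated.

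**Figure D3:**
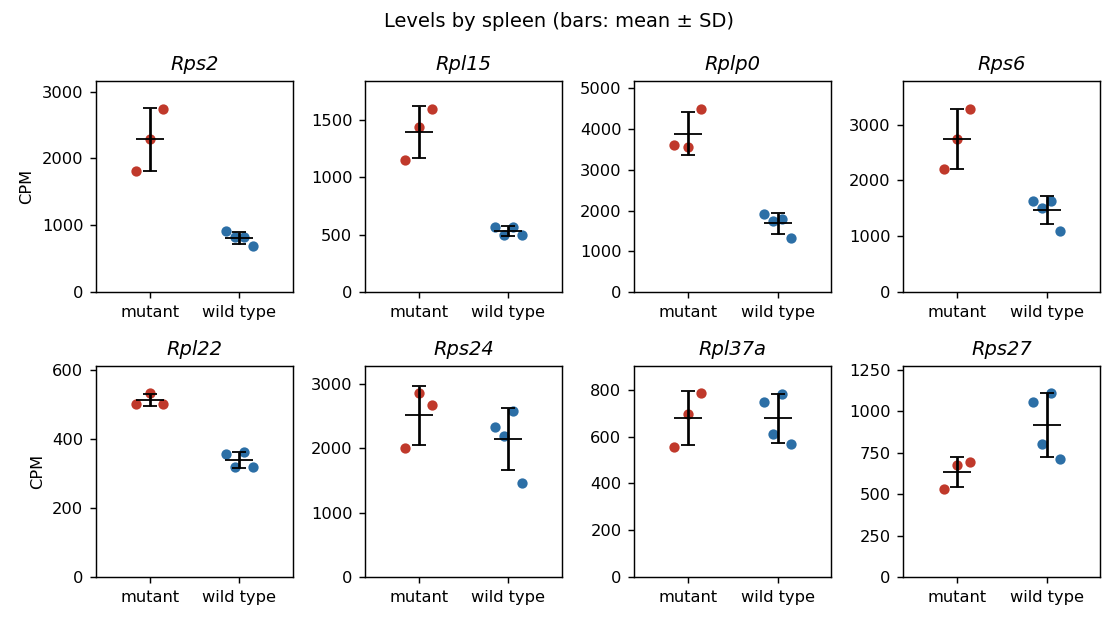
CPM of 8 members in each spleen, mutant left (red) and wild type right (blue), with mean ± SD in black (n = 3 and 4). Rps2, Rpl15, Rplp0, Rps6 and Rpl22 have no overlap between groups with the mutant higher, Rps24 and Rpl37a overlap, and Rps27 is lower in all mutant spleens.

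The P stalk is the arm of the large subunit that recruits elongation factors. Its base protein Rplp0 had 3602, 3572 and 4505 CPM in mutant spleens and 1919, 1743, 1797 and 1320 CPM in wild type (log2 fold change 1.20, SE 0.19, adjusted p = 0.00134). Of the acidic proteins that bind to it in pairs, Rplp1 averaged 2319 ± 297 CPM in mutant spleens and 1453 ± 206 CPM in wild type, a log2 fold change of 0.67 (SE 0.18). Rplp2 averaged 565 ± 78.0 CPM in mutant spleens and 463 ± 30.9 CPM in wild type (log2 fold change 0.29, SE 0.15, adjusted p = 0.129). Whether the changes of these genes differ was not tested. Without mutant 1, Rplp2 passed at 0.44 (adjusted p = 0.0247).

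Rpl5, Rpl11 and Rpl23, which bind Mdm2 when free of the ribosome, all rose. So did 82.6% of the standard large-subunit genes, 73.2% of all tested members and 28.5% of all tested genes. Rpl5 had 2270, 2708 and 2799 CPM in mutant spleens and 1581, 1444, 1675 and 1330 CPM in wild type (log2 fold change 0.78, SE 0.16, adjusted p = 0.00416). Rpl11 averaged 1517 ± 238 CPM in mutant spleens and 709 ± 118 CPM in wild type (log2 fold change 1.10, SE 0.19), with no overlap between the groups. Rpl23 averaged 1787 ± 258 CPM in mutant spleens and 1146 ± 209 CPM in wild type (log2 fold change 0.64, SE 0.20, adjusted p = 0.0255). Its call was lost without mutant 2 (adjusted p = 0.0835), mutant 3 (0.0777) or wild-type 2 (0.0637).

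Of 19 members whose human counterparts are linked to Diamond-Blackfan anaemia, 13 rose and none was called lower, with a median log2 fold change of 0.78. The value of 1 of them, Rps27, was negative at -0.54. Among all tested members 73.2% rose, and among all tested genes 28.5%. The list was split by subunit after the values were seen. All 9 large-subunit members rose (Rpl5, Rpl11, Rpl15, Rpl18, Rpl26, Rpl27, Rpl31, Rpl35 and Rpl35a). Of the 10 small-subunit members 4 rose, among them Rps7, Rps10 and Rps26. Among all standard genes, 82.6% of the large subunit and 64.5% of the small subunit rose. Rps19, the gene most often affected in that disease, had 473, 613 and 640 CPM in mutant spleens and 501, 396, 519 and 422 CPM in wild type. These values overlapped, and the log2 fold change was 0.32 (SE 0.17, adjusted p = 0.144), passing at 0.53 (adjusted p = 0.0154) without mutant 1.

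Rps27l and Rps27 encode near copies of one small-subunit protein and had log2 fold changes of opposite sign. Their coding sequences are shown because the counts of the pair turn on whether reads can be told apart. Both are 255 bases long, from transcripts of GENCODE M21 on GRCm38 (mm10), read 5′ to 3′ on the strand of each gene, and capitals mark the bases that differ between them. Rps27l lies at chr9:66946118-66949509 on the plus strand and Rps27 at chr3:90212667-90213648 on the minus strand.
Rps27l: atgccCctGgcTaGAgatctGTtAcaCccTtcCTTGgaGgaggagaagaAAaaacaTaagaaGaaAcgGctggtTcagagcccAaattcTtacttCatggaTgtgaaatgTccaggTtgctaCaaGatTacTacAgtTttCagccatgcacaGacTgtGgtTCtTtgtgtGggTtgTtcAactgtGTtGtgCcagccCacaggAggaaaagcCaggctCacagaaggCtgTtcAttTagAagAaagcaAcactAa
Rps27: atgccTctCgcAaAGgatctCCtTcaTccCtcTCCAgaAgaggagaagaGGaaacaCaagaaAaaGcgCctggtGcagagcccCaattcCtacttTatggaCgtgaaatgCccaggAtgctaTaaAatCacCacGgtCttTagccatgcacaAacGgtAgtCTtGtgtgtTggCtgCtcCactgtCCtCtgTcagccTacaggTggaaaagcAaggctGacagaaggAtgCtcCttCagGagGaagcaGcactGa
The coding sequences are identical at 76.1% of positions, with 61 differences spread along their length. The longest run that the messenger RNAs share is 11 bases. Of all stretches of 50 bases in the Rps27 messenger RNA, however, 98.6% recur in 9 other genes. The counts of Rps27, and ratios to them, are less certain for that reason.

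Rps27l counts came to 21.3%, 22.1% and 17.3% of Rps27 counts in the mutant, against 3.08%, 4.16%, 2.33% and 4.93% in wild type. The ranges were far apart, and the mean log2 ratio was 2.53 higher in the mutant. An exact permutation test over the 35 ways to split the libraries, two-sided by doubling the one-sided p, gave p = 0.0571, the smallest that this doubling allows, and 0.143 after Benjamini-Hochberg adjustment over the 5 pairs tested. Counting splits with at least the same absolute difference, an alternative added after the data were seen, the exact permutation p was 0.0286, the smallest of 35 splits, and 0.0714 after adjustment. Rps4l, a weakly expressed entry named for Rps4x, came to 0.120%, 0.0659% and 0.0367% of Rps4x counts in the mutant, against 0.418%, 0.501%, 0.552% and 0.357% in wild type. The mean log2 ratio differed by -2.77, mutant minus wild type, with the same exact permutation p-values. By level, Rps4l was the only member that fell, with 1.90, 1.34 and 0.781 CPM in mutant spleens and 6.22, 5.96, 8.25 and 4.53 CPM in wild type (log2 fold change -2.21, SE 0.38, adjusted p = 0.00220). Rps4l lies within the span of Tmtc1, which had a log2 fold change of -1.08 (adjusted p = 0.174).

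For the other pairs the ratio of paralog to partner overlapped between groups. Rpl22 is an RNA-binding large-subunit protein that mice need for development of T cells of the alpha-beta lineage, and Rpl22l1 is its paralog. Rpl22 had 501, 531 and 500.1 CPM in mutant spleens and 357, 317, 362 and 319 CPM in wild type, a narrow range in both groups (log2 fold change 0.59, SE 0.13, adjusted p = 0.00569). Rpl22l1 had 40.7, 61.2 and 82.4 CPM in mutant spleens and 33.0, 25.5, 29.5 and 61.6 CPM in wild type, where wild-type 4 stood apart (log2 fold change 0.71, SE 0.36, adjusted p = 0.120). It passed at 1.06 (adjusted p = 0.0196) without wild-type 4 and at 1.02 (adjusted p = 0.0444) without mutant 1. The ratio of Rpl22l1 to Rpl22 differed by 0.15 on the log2 scale (exact permutation p = 0.686). Rpl7l1 and Rpl7 both rose, by 0.92 and 0.95, and their ratio differed by -0.04 (exact permutation p = 0.914). Rpl3l, known from heart and skeletal muscle, had 0.309 to 0.423 CPM in mutant spleens and 0.111 to 0.530 CPM in wild type, while Rpl3, a protein near the peptidyl transferase centre, rose by 1.12 (SE 0.18).

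Rpl10l, a testis paralog, had no count in any library. Rpl39l, another testis paralog, had 2 counts over the mutant libraries and 52 over wild type, below the count filter of the test, which for the depths of the groups is a ratio of mutant to wild type of 0.0630 (95% interval 0.00743 to 0.239, counting error only). Where an alternative kept it, as with no count filter or without a mutant library, it was called lower (edgeR adjusted p from 0.00646 to 0.0197). Of their partners, Rpl39, in the exit tunnel, rose by 0.47 (SE 0.14, adjusted p = 0.0232, from 0.0581 to 0.0636 without mutant 2, mutant 3, wild-type 1 or wild-type 2), and Rpl10, which joins the large subunit last, did not pass at 0.44 (SE 0.18, adjusted p = 0.0623), but passed without mutant 1 (adjusted p = 0.00834), by DESeq2 (0.0362) and by limma-voom (0.0496). Rps4x rose by 0.49 (SE 0.17, adjusted p = 0.0407), a call kept without mutant 1 and lost without any other single library (adjusted p from 0.0721 to 0.127).

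**Figure D4:**
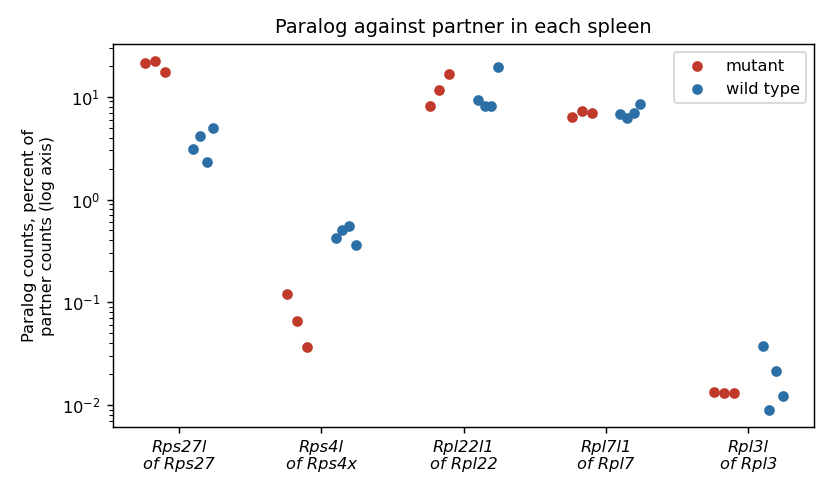
Counts of each paralog as a percent of the counts of its partner in the same library, on a log axis, with mutant libraries left (red) and wild-type libraries right (blue) in each pair. Rps27l stands at 17.3% to 22.1% of Rps27 in the mutant against 2.33% to 4.93% in wild type, Rps4l is lower in the mutant, and the other pairs overlap.

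Members differed in how much of the set they took up. With each member expressed as a percent of all member counts in its library, 21 members were higher and 22 lower in all mutant libraries than in all wild-type libraries, of 82 tested (52.4%). By the same measure 63.2% of all tested genes did not overlap, 9.5% being higher and 53.7% lower relative to the summed members, so the members separated no more often than genes at large. Dividing by the sum of the members itself holds their increases and decreases near balance. Within the large subunit 16 were higher and 10 lower of 49, and within the small subunit 5 were higher and 12 lower of 33. Rps27 took 0.555% ± 0.0371 of member counts in the mutant and 1.37% ± 0.118 in wild type. Rps29 took 0.751%, 0.808% and 0.764% in the mutant, against 1.32%, 1.21%, 1.32% and 1.02% in wild type. Rpl37a took 0.593% in the mutant and 1.02% in wild type, and Rps24 took 2.20% in the mutant and 3.20% in wild type, both as means. All 4 took smaller shares of the set in every mutant library, while the CPM of Rps29, Rpl37a and Rps24 overlapped between the groups. In the other direction Rps2 took 1.84%, 2.04% and 2.09% in the mutant, against 1.25%, 1.26%, 1.11% and 1.28% in wild type.

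In CPM, the spleens kept nearly the same order across members. Of the 77 standard genes, mutant 1 was the lowest mutant library for 65 and mutant 3 the highest for 70. In wild type, wild-type 4 was the lowest for 62 and wild-type 3 the highest for 55. This order depends on the TMM factors, which were highest in wild-type 4 (1.19) and lowest in mutant 3 (0.861). As a percent of all counts, the members were lowest in wild-type 2 (6.32%), with 6.39% in wild-type 4. Summed over members, levels were 98192, 112868 and 131338 CPM in mutant spleens and 72987, 65153, 74515 and 53709 CPM in wild type. The members therefore share each library's deviation and do not count as independent observations. Division markers were higher in the mutant too, as given above, and their part in these sums was not tested.

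Genes that make and use ribosomes rose beside the structural proteins. Of 39 ribosome assembly factors 38 rose and none fell, with a median log2 fold change of 1.48, above the 0.71 of the members. Of all tested genes, 28.5% were called higher and 28.9% lower, the shares to set beside the counts of each list. Nop58, the core protein of the particles that methylate ribosomal RNA, had 360, 465 and 465 CPM in mutant spleens and 95.5, 87.7, 87.4 and 101 CPM in wild type (log2 fold change 2.21, SE 0.15, adjusted p = 1.45e-04). Nhp2, of the particles that make pseudouridine, had a log2 fold change of 2.32 (SE 0.16), and Wdr12, which acts in large-subunit maturation, one of 1.97 (SE 0.15). The only assembly factor not called was Sbds, which frees the large subunit for joining, at 0.13 (adjusted p = 0.540). Of 15 genes of the RNA polymerase I machinery, which transcribes ribosomal RNA, 12 rose and 1 fell (median 0.87). The polymerase I initiation factor Rrn3 had 102, 96.9 and 116 CPM in mutant spleens and 49.8, 46.7, 51.6 and 49.4 CPM in wild type (log2 fold change 1.09, SE 0.12), Taf1d of the promoter selectivity factor had a log2 fold change of 1.42 (SE 0.21), the polymerase subunit Polr1b one of 1.33 (SE 0.20), and the termination factor Ttf1 fell, with a log2 fold change of -0.39 (adjusted p = 0.0373).

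Of 34 translation initiation factors 29 rose and 1 fell (median 1.21), beside 28.5% higher and 28.9% lower among all tested genes. Eif2s1, the regulatory subunit of the factor that brings the initiator tRNA, had 312, 323 and 305 CPM in mutant spleens and 100.3, 109, 94.1 and 96.2 CPM in wild type (log2 fold change 1.65, SE 0.12, adjusted p = 1.54e-04). The cap-binding protein Eif4e rose by 1.55 (SE 0.13) and the helicase Eif4a1 by 1.90 (SE 0.17), while its close relative Eif4a2 fell, with a log2 fold change of -0.69 (adjusted p = 0.00901). Of 11 elongation and termination genes 10 rose and none fell (median 1.13), among them Eef1e1 of the tRNA synthetase complex at 1.88, the release factor Gspt1 at 1.30 and the recycling factor Abce1 at 1.41. Of 18 other genes with TOP messages, a list that shares members with those above, 13 rose and 1 fell (median 0.95). The nucleolar chaperone Npm1 rose by 2.16 (SE 0.21), the splicing regulator Hnrnpa1 by 1.84 and the helicase cofactor Eif4b by 1.34, and Vim, an intermediate filament gene, fell with a log2 fold change of -0.87 (adjusted p = 0.00550). Of 4 ribosomal protein genes whose symbols the rule does not match, Rpl36al rose by 0.88 and Gnb2l1, the scaffold on the small subunit, by 0.81. Fau, whose small-subunit protein is made as a fusion with a ubiquitin-like protein, did not pass, at -0.24 (adjusted p = 0.199). Sbds, Ttf1, Eif4a2 and Vim were chosen after their values were seen.

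A list of 16 growth control genes showed no common direction, with 6 higher, 3 lower and a median of 0.03. Among all tested genes 28.5% were higher and 28.9% lower. Myc, a transcription factor with many targets among ribosome genes, had 283, 455 and 470 CPM in mutant spleens and 86.7, 99.5, 102 and 73.7 CPM in wild type (log2 fold change 2.15, SE 0.22, adjusted p = 3.33e-04). Its relatives Mycl and Mycn fell, with log2 fold changes of -4.24 (adjusted p = 0.00152) and -1.98 (adjusted p = 0.00538), and Tsc1, a brake on the growth kinase mTOR, with one of -0.40 (adjusted p = 0.0278). These 3 were named after their values were seen. Rptor, a subunit of the mTOR complex, rose by 1.04 (SE 0.12) and Rps6kb1, the kinase of Rps6, by 1.06 (SE 0.13). Mtor itself did not pass, at 0.00 (adjusted p = 0.989).

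**Figure D5:**
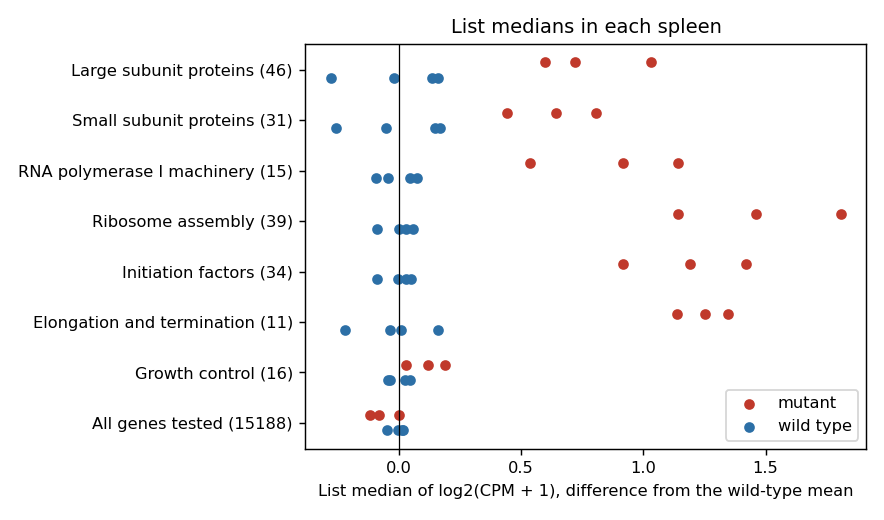
Median over each list of log2(CPM + 1) minus the wild-type mean of the same gene, 1 point per library, mutant (red) above wild type (blue) in each row and the number of tested genes in parentheses. The large-subunit proteins stand at 0.60 to 1.03 in the mutant and at -0.28 to 0.16 in wild type, and the list of all genes tested stays near 0.

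Genes with short messages stood somewhat higher in the mutant, so the members were set beside other genes of like length. Messenger RNA lengths came from 1 transcript per gene of GENCODE M21. That transcript can be longer than the gene as counted. For Rps20 it has 3706 bases, while the deposited span is chr4:3834473-3835600. The length groups and correlations below depend on the transcripts taken. Among genes with messages of up to 1000 bases, 73.7% of 57 standard members rose (median log2 fold change 0.71), against 41.3% of 881 other tested genes (median 0.37). At up to 500 bases the values met, with 46.2% of 13 members higher (median 0.52) and 45.7% of 70 other genes (median 0.52). Between 701 and 1000 bases they were 86.4% of 22 members (median 0.85) and 40.1% of 591 other genes (median 0.31). Within the members, log2 fold change and length had a Spearman correlation of 0.24 over 77 genes, and over 13542 other genes one of -0.11. The genes of a set share the same libraries, so these are descriptions.

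Ribosomal protein genes have many processed pseudogenes, to which reads can be assigned or lost. Of 83 members with a transcript in the annotation, 80 shared at least 1 stretch of 50 bases with another gene, and 46 shared at least 50% of their stretches. Of those 46, 36 rose (median 0.78), and of 35 tested members under that share 24 rose (median 0.69). These shares also depend on the transcript taken, which for Rps20 is the one of 3706 bases (share 7.44%). For Rps27, 98.6% of its stretches recur in 9 other genes, and for Rps2 79.0% in 71. For Rpl22 the share is 5.20%, in 4 other genes. The size of single changes is therefore less certain for genes such as Rps27 and Rps2. Spans of 35 members overlap another listed gene, for many a small nucleolar RNA within an intron.

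The start sites of several members are shown because TOP messages begin with a pyrimidine run. Each line gives 30 bases before and 20 from the start of the gene in RefSeq (GRCm38.p6, mm10 coordinates), 5′ to 3′ on the strand of the gene, and capitals mark the longest pyrimidine run in that window. The first 3 genes rose and the last 3 were not called. They are Rpl15 at chr14:18270967-18271016 (minus), Rpl7a at chr2:26910777-26910826 (plus), Rps2 at chr17:24720033-24720082 (plus), Rps24 at chr14:24490648-24490697 (plus), Rps27 at chr3:90213629-90213678 (minus) and Rplp2 at chr7:141447621-141447670 (plus).
Rpl15: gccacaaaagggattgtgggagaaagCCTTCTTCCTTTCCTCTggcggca
Rpl7a: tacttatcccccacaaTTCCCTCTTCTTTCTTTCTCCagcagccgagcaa
Rps2: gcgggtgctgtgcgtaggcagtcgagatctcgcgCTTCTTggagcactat
Rps24: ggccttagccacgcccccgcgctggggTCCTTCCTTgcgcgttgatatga
Rps27: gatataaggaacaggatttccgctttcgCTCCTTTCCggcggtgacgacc
Rplp2: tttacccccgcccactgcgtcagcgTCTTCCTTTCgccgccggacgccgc
The run is 17 bases in Rpl15 and 21 in Rpl7a, 6 in Rps2, and 9, 9 and 10 in the 3 genes that were not called. Counted from the annotated start, the runs begin at -4 in Rpl15, -14 in Rpl7a and 5 in Rps2. They begin at -3 in Rps24, -2 in Rps27 and -5 in Rplp2. None begins at the annotated first base, so these are lengths of genomic runs and need not be those of the TOP tracts.

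Promoters in the RefSeq table matched 63 members. A run of at least 8 pyrimidines within 50 bases of the start, on the strand of the gene, was found in 79.4% of them, against 35.7% of 27025 promoters in the table. It was found in 35 of 45 members that rose (77.8%) and in 14 of 16 that were not called (87.5%). The letters CCGGAAG, a core recognised by Ets factors, searched on both strands of the 250 bases before and 50 after the start, occurred in 39.7% of member promoters and 9.12% of all. Among members that rose 21 of 45 held them, and among those not called 3 of 16. The letters CACGTG, the site preferred by Myc and its partner, occurred in 7.94% of member promoters and in 7.24% of all promoters.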

How the data were processed

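Total RNA of 3 mutant and 4 wild-type mouse spleens was sequenced in paired ends. Tools named in the submitters' processing notes are bcl2fastq (2.17.1.14), the aligner TopHat2 (2.0.12), featureCounts of the Subread package (1.4.6) and edgeR, with build mm10. Whether counting used strand, and how reads with several matches were treated, is not given in the sources used here. Raw counts per gene, deposited by the authors with symbols and positions, were analysed, and their CPM table was not. Deposited starts count from 0 and are given here from 1.

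CPM were computed from the counts with TMM factors. edgeR 4.0.16 (R 4.3.3) was fitted to all 7 libraries with filterByExpr and group as the only term, by the quasi-likelihood test with Benjamini-Hochberg adjustment. SE was taken as the log2 fold change over the root of F. The procedure was also run on simulated data, whose outcome is not given here and is not used as support. All pairs of libraries of a group differed by more than sampling noise. Reads carry no molecular identifiers, so intervals cover counting error only.

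Named genes were the 5 largest increases and decreases among called members of at least 5 CPM, the 5 members highest in CPM, the paralogs with partners, the stalk, the Mdm2 binders, Rps19, Rps6, Rpsa, Rps14, Rps27a, Brca1, and the 3 smallest p in each accompanying list. Others are examples. Members, lists and tests were chosen with earlier results of these data known. Alternatives were RLE size factors, library size alone, TMM factors without the members, no count filter, DESeq2 1.42.0, limma-voom (limma 3.58.1), a replicate term, a threshold of 0.01 and libraries left out. Motifs and coding sequences were read from RefSeq and GENCODE M21. Values of some single genes are not reported here.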

Additional observations from a re-analysis of the deposited data

Results flagged for a closer look

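In wild type, 3 results had 1 library far from the other 3 by Dixon's test at the 95% level. The gap is that to the nearest library divided by the range over the 4 libraries. Chance alone flags about 1 of 20 groups. The number of results screened is not given here, so these 3 cannot be set against that rate. Rps12, a small-subunit protein, had a gap of 0.958, with 873 CPM in wild-type 4 and 1204 to 1219 CPM in the others, while the mutant had 1986, 1822 and 2281 CPM. Rptor had a gap of 0.912, with 45.9 CPM in wild-type 1 and 40.0 to 40.5 CPM in the others. Rpl22l1 as a percent of Rpl22 had a gap of 0.891, with 19.3% in wild-type 4 and 8.04% to 9.26% in the others, beside 8.12%, 11.5% and 16.5% in the mutant.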

How the results depend on the processing

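Members called higher numbered 60 with RLE factors and with TMM factors computed without the members, 58 without a count filter, 61 by limma-voom, 64 by DESeq2, 42 with library size alone and 39 at an adjusted p under 0.01. Without wild-type 1 and 2, 26 members and 2923 of 15474 tested genes were called higher. Of all 15188 genes tested, 4462 were higher with RLE factors and 4356 with TMM factors computed without the members. The number was 4209 by limma-voom and 3153 with library size alone. Without a count filter it was 4436 of 19607, and by DESeq2 4642 of 15022. The number over all genes at 0.01 is not given here. Members called lower numbered 2 with library size alone, without a count filter, by limma-voom and without wild-type 1 and 2, the second being Rps27 (library size, limma-voom) or Rpl39l. Leaving out 1 library gave 47 (without mutant 2 or mutant 3) to 74 (without mutant 1) higher and 1 to 2 lower. Calls over all genes moved as well. They were higher for 3785 of 15537 without mutant 2, 3985 of 15463 without mutant 3 and 5010 of 15315 without mutant 1. The median of members minus that of all genes stayed between 0.63 and 0.91 in all of these fits. The ratio of Rpl7l1 to Rpl7 differed by -0.102 to 0.0503, and that of Rpl22l1 to Rpl22 by -0.106 to 0.448, when 1 library was left out, changing sign; the causes were not tested.

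Same-numbered libraries did not deviate together (correlations across genes of 0.0421, -0.186 and 0.101), and mutant 3 alone correlated best with its own number. With the replicate number as a block, 28 of 82 tested members were called higher and 1 lower. Of 15188 genes tested, 2950 were called higher and 3140 lower (40.1% in either direction).

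With 3 against 4 libraries, the exact test of a ratio cannot go below 0.0571 when the one-sided p is doubled, or 0.0286 by absolute difference. Whole-spleen counts do not separate cell types, and reads shared with pseudogenes, or with a gene over the same span, limit single values.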
